A study of Mus musculus with 8 samples.

Results

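The set described here was made of 10 Polycomb genes, Ezh1, Ezh2, Eed, Suz12, Jarid2, Cbx2, Cbx7, Bmi1, Scml2 and Scmh1, out of 55421 genes in a table of raw read counts. The members were taken by gene name, and all 10 were present and passed the filter on low counts, which left 20588 genes. The set was chosen by names with measured values in view, and Scmh1 was selected on the dependence of its level, and of its NRRA response, on genotype in these data, while Scml2 was taken as a germline gene. Comparisons of the genotypes are therefore given for the members as a description, with no p-value, and Scmh1 is described with no p-value throughout. Since measured values were in view, the NRRA p-values of the other members are a description too.

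Polycomb proteins keep developmental genes silent. Polycomb repressive complex 2 (PRC2) methylates histone H3, and the canonical form of Polycomb repressive complex 1 (PRC1) reads that mark through its CBX subunits, compacts chromatin and ubiquitinates histone H2A. In male germ cells SCML2, a germline member, works with PRC1 and takes part in silencing somatic genes.

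RNA was measured in 8 libraries of mouse spermatogonial stem cell (SSC) cultures in the strain background C57BL/6XDBA/2, derived from testes of neonatal pups and kept on irradiated mouse embryonic fibroblasts, the feeder cells, in medium with N2 supplement and 10 ng/ml each of bFGF and GDNF. The 4 groups were cultures deficient for Stra8 (STRA8KO) or for Spo11 (SPO11KO), each given vehicle (Veh) or NRRA for 2 days, with 2 libraries a group. NRRA is nutrient restriction medium plus retinoic acid (RA), a treatment used to start meiosis in culture. The study's supplement describes that medium as SSC medium diluted to 10% in a salt solution, and lists GDNF above 10 ng/ml in SSC medium. The labels give 10 ng/ml for all 4 groups, so growth factor levels were not necessarily equal in Veh and NRRA. All 4 groups carried a knockout, and cultures of wild-type mice were not used here. The study's reporting summary describes 2 independent biological replicates for its sequencing experiments. For experiments in general, the methods section states that each replicate used different mice, tissues or cells. The labels do not say which animals or cultures the libraries of a group came from. The p-values below thus measure spread between those libraries, and not necessarily spread between animals or cultures.

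Library totals ranged from 20960794 to 27038868 counts. Stra8, which drives entry into meiosis, had 2 and 0 counts with Veh and 169 and 170 with NRRA in STRA8KO, against 28 and 12 with Veh and 12604 and 16191 with NRRA in SPO11KO. Spo11, which makes meiotic DNA breaks, had 72 to 148 counts in the 4 libraries labelled SPO11KO and 31 to 68 in the 4 labelled STRA8KO, so its counts did not check the SPO11KO label. Markers of germ cells and of feeder cells were both present in every library. The summed level of 15 fibroblast markers, led by Col1a1, was 15770 and 16230 CPM (a gene's counts relative to the scaled library size) with Veh and 33210 and 32630 with NRRA in STRA8KO, and 8682 and 8602 with Veh and 17400 and 16670 with NRRA in SPO11KO. That of 8 pan-germ genes, led by Dazl and Piwil2, was 699.4 and 701, 849.8 and 810.8, 1400 and 1454, and 1548 and 1612 in the same order. The feeder signal thus lay higher and the germ cell signal lower in the libraries labelled STRA8KO, in both media. Under NRRA the largest rises in CPM among the fibroblast markers were those of the collagen genes Col1a1, Col1a2 and Col3a1. In STRA8KO their means went from 4145 to 11430, from 2880 to 7560 and from 1669 to 5717 CPM. The median log2 fold change of the 15 markers was only 0.24 in STRA8KO and 0.19 in SPO11KO, with 4 and 5 markers lower. Of the 8 pan-germ genes, 5 were higher and 0 lower under NRRA in STRA8KO, with a median log2 fold change of 0.18. In SPO11KO 4 were higher and 2 lower, with a median of 0.06. There the mean of Piwil2 went from 214.1 to 331.5 CPM and that of Dazl from 638.2 to 625.6. The rise of the pan-germ sum in SPO11KO was thus not shared by all 8 genes. In bulk libraries, fewer cells of a type and less RNA per cell cannot be told apart.

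The promoters of 3 members are printed here because they belong to the genes around which the results turn, Scmh1 and Ezh1, which differed most between the 2 NRRA responses, and Scml2, the germline member with the highest level. Each window runs from 250 bases before to 50 after the start site on the gene's own strand, taken from RefSeq on assembly GRCm38.p6. Capitals mark a match to CNCCTCAG, a motif associated with STRA8 binding.
Scmh1: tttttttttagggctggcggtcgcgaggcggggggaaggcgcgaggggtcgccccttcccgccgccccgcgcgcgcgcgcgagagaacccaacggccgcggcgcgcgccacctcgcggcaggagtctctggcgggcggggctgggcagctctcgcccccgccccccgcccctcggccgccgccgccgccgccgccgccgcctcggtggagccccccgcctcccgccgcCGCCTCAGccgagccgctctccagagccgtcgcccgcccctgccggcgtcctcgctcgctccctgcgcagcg
Ezh1: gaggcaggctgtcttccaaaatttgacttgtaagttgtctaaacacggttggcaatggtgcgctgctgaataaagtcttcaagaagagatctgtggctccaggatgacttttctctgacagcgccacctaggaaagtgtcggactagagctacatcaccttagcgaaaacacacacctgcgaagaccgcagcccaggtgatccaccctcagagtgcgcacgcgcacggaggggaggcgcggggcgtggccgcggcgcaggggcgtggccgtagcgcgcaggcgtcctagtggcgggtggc
Scml2: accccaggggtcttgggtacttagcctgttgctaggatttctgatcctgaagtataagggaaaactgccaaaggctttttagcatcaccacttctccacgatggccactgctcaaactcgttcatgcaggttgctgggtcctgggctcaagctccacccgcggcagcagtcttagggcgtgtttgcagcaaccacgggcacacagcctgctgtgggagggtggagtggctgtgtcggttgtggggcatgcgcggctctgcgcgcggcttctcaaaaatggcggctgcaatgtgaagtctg
The windows lie at chr4:120405098-120405397 (plus strand), chr11:101226414-101226713 (minus strand) and chrX:161162500-161162799 (plus strand). The Scmh1 window held 54 CG dinucleotides, more than 99.7% of 32851 promoters, while that of Ezh1 held 23 and that of Scml2 held 13, against a median of 7 over all promoters. A second Scmh1 promoter in the same table, downstream of the first, held 0. The Scml2 window lies inside the gene as annotated for coordinates, which starts at 161117193, and so is not at that gene's first base.

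Among the 9 members with an entry, which have 11 windows because Jarid2 and Scmh1 have 2 each, 3 short motifs were searched on both strands. CNCCTCAG was found once, in the first Scmh1 window at bases 229 to 236, as CGCCTCAG on the gene strand and 14 bases before the start site, and 7.94% of all promoters held it. The E-box CACGTG was found once, in the Bmi1 window at bases 36 to 41, and occurred in 7.15% of all promoters. AGGTCA, the half-site of retinoid receptors, was found in none of the 11 windows and in 16.3% of all promoters. A match of letters is not a bound site, and no match says only that these letters are not in the window.

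The 10 genes were expressed in every library, at different levels. On the scale of CPM per kilobase (kb) of exon, which allows genes to be compared, Scml2 ranked first in all 4 groups. Its mean was 17.8 with Veh and 20.2 with NRRA in STRA8KO, and 41.3 with Veh and 39.9 with NRRA in SPO11KO. Cbx7 ranked last in all 4 groups, with 2.89, 2.23, 6.73 and 5.02 in the same order, and Ezh2 ranked ninth. In STRA8KO Veh, Scml2 was followed by Eed (15.1), then by Jarid2 (13.5) and Suz12 (13.3), whose ranges overlapped, then Scmh1 (10.2). Bmi1 (9.41), Cbx2 (9.31) and Ezh1 (8.77) came next, and each neighbour overlapped the next in its 2 libraries. In SPO11KO Veh the order after Scml2 was Jarid2 (23.2) and Cbx2 (23.1), which overlapped, then Suz12 (21.3), Eed (19.8) and Ezh1 (19.5), each overlapping the next, then Scmh1 (13.8), Bmi1 (9.26) and Ezh2 (8.09). Under NRRA the PRC2 scaffold gene Suz12 and the CBX gene Cbx2 stood close together in STRA8KO (11.5 and 11.4, overlapping), while in SPO11KO Cbx2 was second at 23.5 and Scmh1 had moved to eighth at 6.83, overlapping Ezh2 at 6.65.

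**Figure D1:**
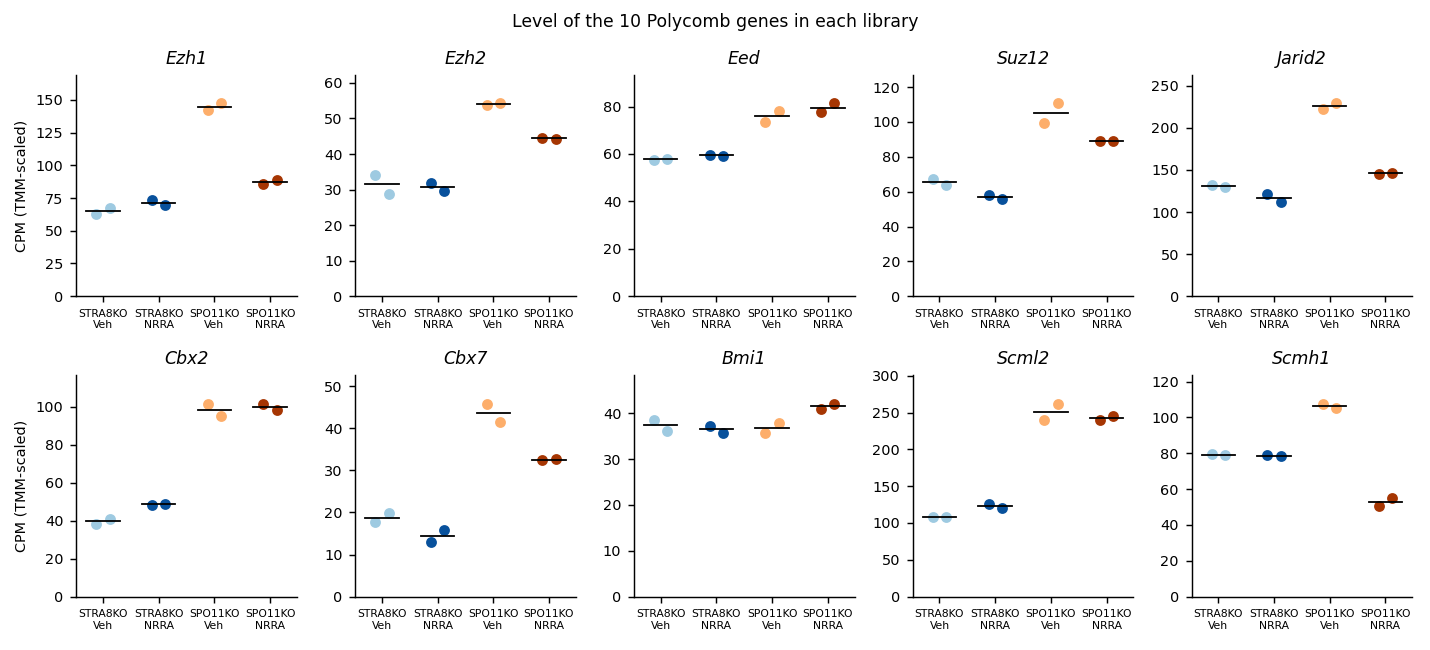
Level of each of the 10 genes in every library, in CPM scaled by TMM, from 0 on each vertical axis. Points are libraries, 2 per group, and bars are group means. The 2 libraries of a group lie close together, Scmh1 is lowest in SPO11KO NRRA (50.6 and 55), and 9 of the 10 genes, all but Bmi1, are higher in SPO11KO Veh than in STRA8KO Veh on this scale, an order that turned for Ezh2, Eed, Suz12, Jarid2 and Scmh1 when libraries were scaled to pan-germ counts.

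The first question was how the members responded to NRRA in each culture. In cultures labelled SPO11KO, NRRA lowered the PRC2 genes Ezh1, Ezh2, Suz12 and Jarid2 and the CBX gene Cbx7, and raised Bmi1 slightly. The rise of Bmi1 was not called with DESeq2 or with libraries scaled to pan-germ counts. In cultures labelled STRA8KO, Suz12, Jarid2 and Cbx7 were lower and Cbx2, Scml2 and Ezh1 higher. With libraries scaled to pan-germ counts, the values of Scml2 and Ezh1 were below 0, and Cbx2 was at 0.05 and not called. Calls rest on edgeR's quasi-likelihood test over all 20588 genes, with an adjusted p under 0.05. For the members these calls and p-values are a description, since the set was chosen with earlier results of these data known. Scmh1 is left out of these counts, since its NRRA response was among the values that chose it. In STRA8KO, 6 of the other 9 members were called, 3 higher and 3 lower, where 41.9% of all genes tested were called, 21.6% higher and 20.2% lower, and the median log2 fold change of the 9 was -0.04. In SPO11KO, 6 of the 9 were called, 1 higher and 5 lower, where 49.9% of all genes were called, 24.5% higher and 25.5% lower, and the median was -0.24. With a log2 fold change of at least 0.5 added to the rule, the counts were 0 of 9 in STRA8KO, where 20.4% of all genes passed, and 2 of 9 in SPO11KO, Ezh1 and Jarid2, where 24.5% passed.

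**Figure D2:**
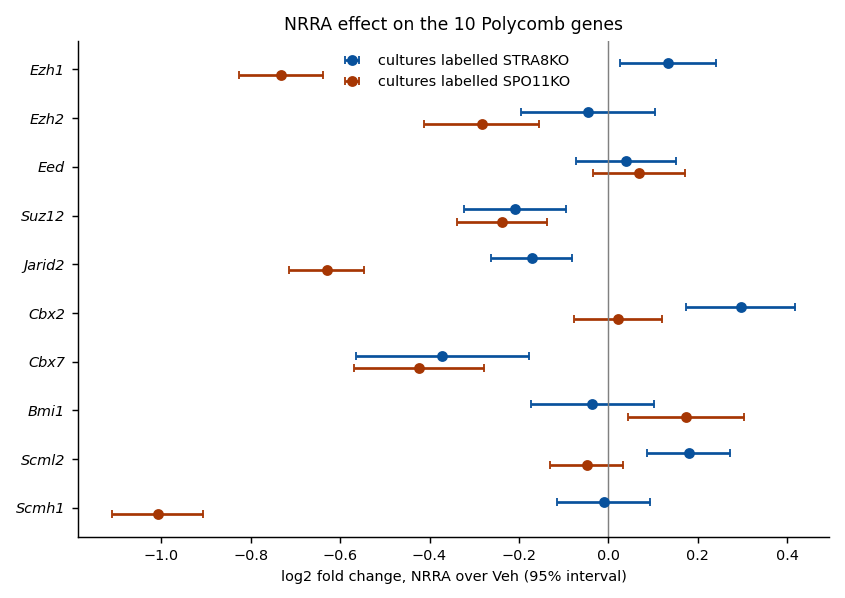
NRRA effect on each of the 10 genes as a log2 fold change of NRRA over Veh, on the horizontal axis, in cultures labelled STRA8KO (blue) and SPO11KO (brown). Points are estimates from 2 libraries against 2 and bars are 95% intervals. The intervals for Ezh1, Jarid2 and Scmh1 in SPO11KO lie wholly below -0.5, and all 10 estimates in STRA8KO lie between -0.37 and 0.30.

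Ezh1 and Ezh2 encode the alternative catalytic subunits of PRC2, with EZH2 the form of dividing cells and EZH1 that of many resting or differentiated cells. Ezh1 (ENSMUSG00000006920) lies at chr11:101191115-101226463 on GRCm38. Its level was 63.1 and 67.4 CPM with Veh and 73.5 and 69.6 with NRRA in STRA8KO, and 142 and 147 with Veh and 85.6 and 88.7 with NRRA in SPO11KO. The 4 groups did not overlap, and SPO11KO Veh stood far above the others. Under NRRA, Ezh1 fell by 39.8% in SPO11KO, with a log2 fold change of -0.73 (SE 0.0471, adjusted p = 1.13e-18). In STRA8KO it rose by 9.67%, with 0.13 on the log2 scale (SE 0.0530, adjusted p = 0.0386). That rise turned to -0.11 when libraries were scaled to pan-germ counts. It missed the threshold with size factors (adjusted p = 0.110), with no filter (0.118), with DESeq2 (0.223) and without any 1 of 5 libraries. These were STRA8KO Veh replicate 1 (log2 0.08, adjusted p = 0.383), STRA8KO NRRA replicate 1 (0.10, 0.276), SPO11KO Veh replicate 2 (0.12, 0.0571), SPO11KO NRRA replicate 1 (0.12, 0.0613) and SPO11KO NRRA replicate 2 (0.12, 0.0602).

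Ezh2 (ENSMUSG00000029687, chr6:47530139-47595341) was at 34.2 and 28.8 CPM with Veh and 31.7 and 29.5 with NRRA in STRA8KO, and 53.9 and 54.2 with Veh and 44.5 and 44.4 with NRRA in SPO11KO. It fell by 17.8% under NRRA in SPO11KO (log2 fold change -0.28, SE 0.0636, adjusted p = 1.85e-04). In STRA8KO the NRRA libraries lay within the range of the Veh libraries, and the log2 fold change was -0.04 with a 95% interval from -0.19 to 0.11 (adjusted p = 0.671), while pan-germ scaling gave -0.29 and a call (adjusted p = 0.00346). Per kb of exon, Ezh2 was below Ezh1 in all 8 libraries. The ratio of Ezh2 to Ezh1 in SPO11KO was 0.421 and 0.411 with Veh against 0.579 and 0.557 with NRRA, so both NRRA libraries had the higher ratio. It was 0.604 and 0.475 in STRA8KO Veh and 0.481 and 0.473 in STRA8KO NRRA, where 1 Veh library stood apart from the other 3.

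EED, which binds methylated histone H3 and stimulates the enzyme, and SUZ12, the scaffold, complete the PRC2 core. Suz12 (ENSMUSG00000017548, chr11:79993106-80034123) was at 67.4 and 64.1 CPM with Veh and 58.3 and 55.7 with NRRA in STRA8KO, and 99.6 and 111 with Veh and 89.3 and 88.9 with NRRA in SPO11KO. NRRA libraries lay below Veh libraries in both cultures. Suz12 fell by 13.5% in STRA8KO (log2 -0.21, SE 0.0567, adjusted p = 0.00219) and by 15.2% in SPO11KO (log2 -0.24, SE 0.0502, adjusted p = 7.57e-05). Without STRA8KO Veh replicate 1 the fall in STRA8KO was not called (log2 -0.17, adjusted p = 0.0655).

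Eed (ENSMUSG00000030619, chr7:89954654-89980983) was at 57.6 and 58.0 CPM with Veh and 59.6 and 59.2 with NRRA in STRA8KO, and 73.6 and 78.2 with Veh and 77.9 and 81.3 with NRRA in SPO11KO. The log2 fold change under NRRA was 0.04 in STRA8KO (95% interval -0.07 to 0.15, adjusted p = 0.617) and 0.07 in SPO11KO (-0.03 to 0.17, adjusted p = 0.275). With pan-germ scaling the value in STRA8KO turned to -0.21 and was called lower (adjusted p = 0.00433). It was called higher in SPO11KO when libraries were scaled by total counts (0.16, adjusted p = 0.00618). A noncoding gene on the opposite strand, E230029C05Rik, shares 6.82% of Eed's exon bases, and its counts summed to 850 over the 8 libraries.

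JARID2 is an accessory protein of PRC2 that helps bring the complex to chromatin. Jarid2 (ENSMUSG00000038518, chr13:44729474-44921643) was at 132 and 130 CPM with Veh and 121 and 112 with NRRA in STRA8KO, and 223 and 229 with Veh and 146 and 146 with NRRA in SPO11KO. It was highest in SPO11KO Veh, and the SPO11KO NRRA libraries lay nearer to the STRA8KO libraries. Jarid2 fell by 35.4% in SPO11KO (log2 -0.63, SE 0.0417, adjusted p = 3.17e-18) and by 11.2% in STRA8KO (log2 -0.17, SE 0.0447, adjusted p = 0.00142). The fall in STRA8KO was not called without STRA8KO NRRA replicate 2 (log2 -0.12, adjusted p = 0.0983).

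CBX2 and CBX7 are alternative readers of the PRC2 mark in canonical PRC1. Cbx2 (ENSMUSG00000025577, chr11:119022962-119031270) was at 38.2 and 41.1 CPM with Veh and 48.4 and 48.8 with NRRA in STRA8KO, and 102 and 95.3 with Veh and 102 and 98.5 with NRRA in SPO11KO. It rose by 22.7% under NRRA in STRA8KO (log2 0.30, SE 0.0606, adjusted p = 6.49e-05), a value that became 0.05 and was not called with pan-germ scaling (adjusted p = 0.581). In SPO11KO the NRRA and Veh libraries overlapped, with 0.02 on the log2 scale (95% interval -0.08 to 0.12, adjusted p = 0.751).

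Cbx7 (ENSMUSG00000053411, chr15:79915807-79971119) had the lowest level of the 10 per kb, with 271 to 1089 counts a library. It was at 17.7 and 19.8 CPM with Veh and 13.1 and 15.8 with NRRA in STRA8KO, and 45.9 and 41.5 with Veh and 32.5 and 32.6 with NRRA in SPO11KO. Cbx7 fell by 22.7% under NRRA in STRA8KO (log2 -0.37, SE 0.0961, adjusted p = 0.00131) and fell by 25.4% in SPO11KO (log2 -0.42, SE 0.0725, adjusted p = 2.34e-06). Without STRA8KO NRRA replicate 1 the fall in STRA8KO was -0.24 and was not called (adjusted p = 0.0919). The ratio of Cbx2 to Cbx7 per kb was 3.29 and 3.16 with Veh and 5.64 and 4.70 with NRRA in STRA8KO, and 3.38 and 3.50 with Veh and 4.76 and 4.6 with NRRA in SPO11KO. All 4 NRRA libraries thus had a higher ratio than all 4 Veh libraries, and a ratio within a library does not depend on how libraries are scaled.

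BMI1, also called PCGF4, is the partner of the RING ubiquitin ligases in canonical PRC1 and is known for stem cell renewal. Bmi1 (ENSMUSG00000026739, chr2:18677018-18686629) varied least, at 38.6 and 36.1 CPM with Veh and 37.3 and 35.8 with NRRA in STRA8KO, and 35.7 and 37.9 with Veh and 40.9 and 42.1 with NRRA in SPO11KO. It rose by 12.8% under NRRA in SPO11KO (log2 0.17, SE 0.0644, adjusted p = 0.0211). In STRA8KO the log2 fold change was -0.04 (95% interval -0.17 to 0.10, adjusted p = 0.710), against -0.28 and a call with pan-germ scaling (adjusted p = 0.00144). The rise in SPO11KO was not called with DESeq2 (log2 0.18, adjusted p = 0.0785), with pan-germ scaling (0.03, adjusted p = 0.780), without SPO11KO Veh replicate 1 (0.13, adjusted p = 0.181) or without SPO11KO NRRA replicate 2 (0.14, adjusted p = 0.178).

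SCML2 and SCMH1 are related proteins of the SCM family, which associate with PRC1. Scml2 (ENSMUSG00000000037, chrX:161117193-161258213) was at 108 and 109 CPM with Veh and 125 and 120 with NRRA in STRA8KO, and 240 and 262 with Veh and 239 and 246 with NRRA in SPO11KO. All 4 SPO11KO libraries lay above all 4 STRA8KO libraries, whatever the medium. Under NRRA it rose by 13.2% in STRA8KO (log2 0.18, SE 0.0457, adjusted p = 0.00113), which turned to -0.07 with pan-germ scaling. In SPO11KO the log2 fold change was -0.05 (95% interval -0.13 to 0.03, adjusted p = 0.340), and it was 0.04 when libraries were scaled by total counts and -0.20 with a call under pan-germ scaling (adjusted p = 5.21e-04).

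Scmh1 (ENSMUSG00000000085, chr4:120405281-120530186) was at 79.7 and 78.7 CPM with Veh and 78.9 and 78.3 with NRRA in STRA8KO, and 108 and 105 with Veh and 50.6 and 55 with NRRA in SPO11KO. The 4 STRA8KO libraries lay within a narrow band, between the SPO11KO Veh libraries above and the SPO11KO NRRA libraries below. Its log2 fold change under NRRA was -1.01 (95% interval -1.11 to -0.91) in SPO11KO and -0.01 (-0.12 to 0.09) in STRA8KO. These values were among those that chose the gene, and no test is given. Over the 5 scalings and filters and the DESeq2 fit that were tried, the SPO11KO value lay between -1.16 and -0.92.

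Set beside each other per kb, Scml2 exceeded Scmh1 in all 8 libraries. The ratio was 1.73 and 1.75 with Veh and 2.02 and 1.95 with NRRA in STRA8KO, and 2.84 and 3.17 with Veh and 6.01 and 5.68 with NRRA in SPO11KO. The groups did not overlap, and the step from Veh to NRRA was larger in SPO11KO than in STRA8KO. Scmh1 was chosen on its NRRA response, so this larger step restates the choice and is given as a description.

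**Figure D3:**
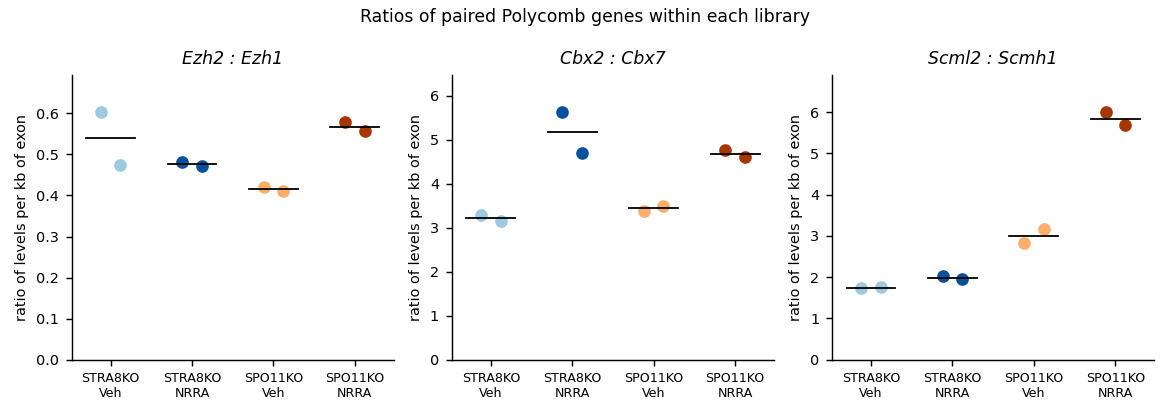
Ratios of levels per kb of exon for 3 pairs of related genes in each library, on vertical axes from 0. Points are libraries and bars are means of 2. Cbx2 to Cbx7 is at least 4.6 in every NRRA library and at most 3.50 in every Veh library, and Scml2 to Scmh1 reaches 5.68 and 6.01 in SPO11KO NRRA only. Scmh1 was chosen on its NRRA response, so the last ratio is a description.

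Scaling to the pan-germ counts moved the median of all genes by -0.25 (log2) for NRRA in STRA8KO and by -0.15 in SPO11KO. With it, 6 of the 9 members other than Scmh1 were called lower and 0 higher in STRA8KO, where 53.1% of all genes were called and 41.5% were lower. The counts in SPO11KO were also 6 lower and 0 higher, where 50.3% of all genes were called and 34.8% were lower. Markers of other states moved with these results. The 6 markers of undifferentiated spermatogonia, among them Gfra1, Etv5 and Ret, were all lower under NRRA in SPO11KO, with a summed level of 1050 and 1048 CPM in Veh and 256.4 and 258.8 in NRRA. In STRA8KO, 3 were higher and 2 lower, and their sums ran from 470.5 to 478.2 with Veh and from 497.7 to 505.2 with NRRA. Of the 15 fibroblast markers, 9 were higher and 4 lower under NRRA in STRA8KO, and 10 were higher and 5 lower in SPO11KO. The part of these cells in the members' changes was not tested.

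The second question was how the cultures differed in the same medium. In Veh, 9 members lay lower in STRA8KO than in SPO11KO with TMM scaling, and Bmi1 did not. When libraries were scaled to pan-germ counts, 6 of the 10 lay higher. That scaling called 79.7% of all genes in Veh, and 98% of those calls were higher in STRA8KO. The log2 differences of STRA8KO from SPO11KO in Veh were -1.32 for Cbx2, -1.22 for Cbx7, -1.21 for Scml2, -1.15 for Ezh1, -0.79 for Jarid2, -0.78 for Ezh2, -0.68 for Suz12, -0.43 for Scmh1, -0.39 for Eed and 0.02 for Bmi1, with SEs from 0.0427 to 0.0812. As a description, 9 of the 10 members, all lower, passed the call rule, where the fit called 62.3% of all genes, 31.6% higher and 30.7% lower. With a difference of at least 0.5, 7 passed, and 40.2% of all genes did. Nothing is read from these counts, since genotype was part of the choice.

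In NRRA the same differences were -1.17 for Cbx7, -1.04 for Cbx2, -0.98 for Scml2, -0.65 for Suz12, -0.54 for Ezh2, -0.42 for Eed, -0.33 for Jarid2, -0.29 for Ezh1 and -0.19 for Bmi1. Scmh1 alone lay on the other side, at 0.57 (95% interval 0.47 to 0.68), since its level in SPO11KO NRRA lay below that in STRA8KO NRRA. As a description, all 10 members passed the call rule, 9 lower and 1 higher, where 64% of all genes did, 35% higher and 28.9% lower. With a difference of at least 0.5 the count was 6, and 42% of all genes passed. Nothing is read from these counts either, for the same reason.

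The differences between the cultures ran alongside the makeup of the libraries. In both media all 15 fibroblast markers were higher and all 8 pan-germ genes lower in STRA8KO, with median log2 differences of 0.93 and -0.98 in Veh and 0.94 and -0.91 in NRRA. Expressed as a share of the pan-germ sum, Scml2 was at 15.5% in both STRA8KO Veh libraries and 17.6% ± 0.608 (SD, n = 2) in SPO11KO Veh, while Bmi1 was at 5.34% ± 0.260 and 2.58% ± 0.0446. Scaling to pan-germ counts moved the median of all genes by 1.03 in Veh and 0.93 in NRRA. On that scale, Cbx2 (-0.29), Cbx7 (-0.19), Scml2 (-0.18) and Ezh1 (-0.12) remained on the lower side in Veh, and Bmi1 (1.05), Eed (0.63), Scmh1 (0.60), Suz12 (0.35), Ezh2 (0.25) and Jarid2 (0.24) lay higher. In NRRA, Cbx7 (-0.24), Cbx2 (-0.11) and Scml2 (-0.05) stayed on the lower side, while Ezh1 (0.64), Jarid2 (0.60), Eed (0.51), Ezh2 (0.39), Suz12 (0.28) and Bmi1 (0.74) turned higher and Scmh1 was at 1.5. The part of the cell mixture in the genotype differences was not tested.

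**Figure D4:**
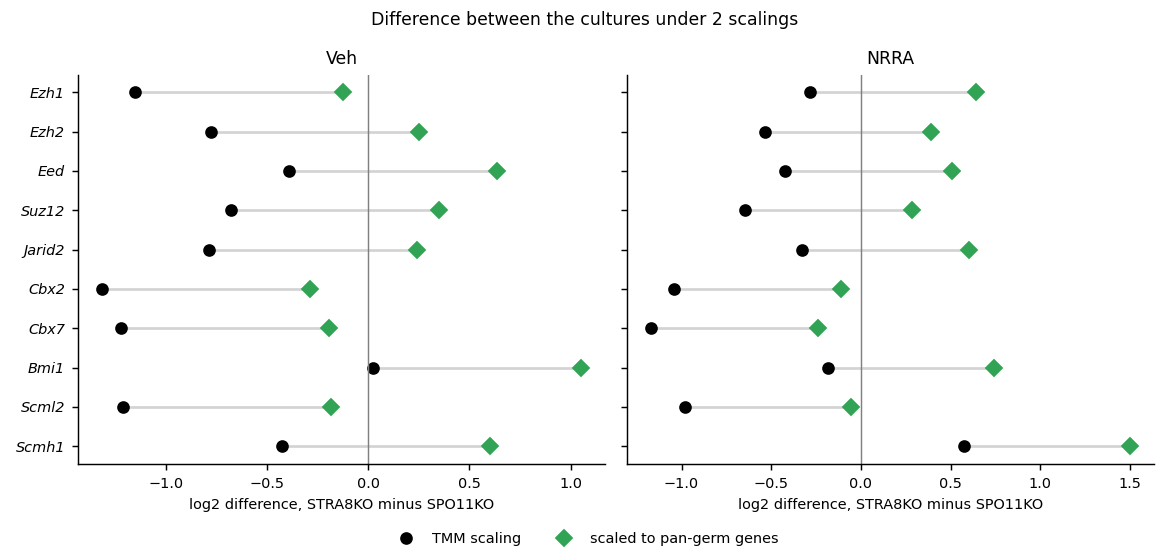
Log2 difference of STRA8KO from SPO11KO for each of the 10 genes in Veh (left) and NRRA (right), with TMM scaling (black circles) and with libraries scaled to pan-germ counts (green diamonds). In Veh the black points run from -1.32 (Cbx2) to 0.02 (Bmi1), and the green points lie about 1 unit to the right, from -0.29 to 1.05.

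The difference between the 2 NRRA responses, STRA8KO minus SPO11KO, was 1.00 for Scmh1 (95% interval 0.85 to 1.14), 0.87 for Ezh1 (0.72 to 1.01) and 0.46 for Jarid2 (0.34 to 0.58) on the log2 scale. Smaller values were found for Cbx2 (0.27), Ezh2 (0.24) and Scml2 (0.23), and the intervals of Cbx7 (-0.19 to 0.29), Suz12 (-0.12 to 0.18) and Eed (-0.18 to 0.12) spanned 0. Bmi1 was on the other side at -0.21 (-0.40 to -0.02). As a description, 5 members, all higher, passed the call rule, where 25.1% of all genes did, 14.8% higher and 10.3% lower. With at least 0.5 added, 2 members and 12.1% of all genes passed. Nothing is read from these counts, since dependence on genotype was part of the choice, and Scmh1 was selected on this difference. With pan-germ scaling the values were 0.90 for Scmh1, 0.77 for Ezh1 and 0.36 for Jarid2. These values rest on the same 8 libraries as the choice of members and are a description. All 6 markers of undifferentiated spermatogonia also had a higher value in STRA8KO in this difference, with a median of 2.68. The part of that cell state in the members' values was not tested.

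The genes most like Scml2 and Scmh1 in pattern were found by the root mean square difference of centred log2 CPM over the 8 libraries, among 12742 genes. Those nearest to Scml2 were Dazl, an RNA-binding protein of germ cells, at 0.0403, Sapcd2 at 0.0620 and Usp9y at 0.0622. Dazl, which is also 1 of the 8 pan-germ genes, was at 286.7, 304.6, 638.2 and 625.6 CPM in the order STRA8KO Veh, STRA8KO NRRA, SPO11KO Veh and SPO11KO NRRA. Those nearest to Scmh1 were Acacb, a fatty acid metabolism enzyme, at 0.0805, Adgrl3, an adhesion receptor, at 0.0811 and Lemd3, an inner nuclear membrane protein, at 0.0845. Acacb was at 29.8, 31.6, 43.9 and 22.1 CPM in the same order. With only 8 libraries in 4 groups, many genes can share such a pattern.

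The other genes of the pathway were 46 partners, other PRC1 subunits, erasers of the marks and described targets, of which 41 were tested. This list too was made with earlier results of these data known, so its p-values, those between genotypes included, are a description. Pax6, Pax3, Neurog1, Nkx2-2 and Olig2, classical Polycomb targets in development, did not pass the filter. Under NRRA in STRA8KO, 25 of the 41 were called, 13 higher and 12 lower, with a median log2 fold change of 0.00, where 41.9% of all genes were called, 21.6% higher and 20.2% lower. In SPO11KO, 32 were called, 13 higher and 19 lower, with a median of -0.02, where 49.9% of all genes were called, 24.5% higher and 25.5% lower. The count in STRA8KO was 15 without STRA8KO Veh replicate 2. With pan-germ scaling the calls were 3 higher and 25 lower in STRA8KO, and 7 higher and 21 lower in SPO11KO, where 53.1% and 50.3% of all genes were called. The counts by class that follow are to be read against the same shares.

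Of 9 PRC2 partners, 1 rose and 3 fell in STRA8KO, and 3 rose and 5 fell in SPO11KO, against 0 and 6, and 2 and 5, with pan-germ scaling. Phf19, whose protein is an accessory subunit that recruits PRC2, was at 8.77 and 7.25 CPM with Veh and 2.70 and 2.54 with NRRA in STRA8KO, and 18.3 and 17.7 with Veh and 5.09 and 3.17 with NRRA in SPO11KO. It fell in both cultures, by 1.62 on the log2 scale in STRA8KO (SE 0.183, adjusted p = 2.44e-10) and fell by 2.14 in SPO11KO (SE 0.139, adjusted p = 4.06e-18). Lcor, which hosts a PRC2-associated isoform, rose in SPO11KO (log2 0.59, SE 0.0443, adjusted p = 2.95e-16).

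Of 10 other canonical PRC1 genes, 5 rose and 3 fell in STRA8KO, and 6 rose and 3 fell in SPO11KO, against 2 and 5, and 3 and 4, with pan-germ scaling, which turned the balance in both cultures. Rnf2, encoding the ubiquitin ligase RING1B, was at 52.2 and 50.3 CPM with Veh and 74.7 and 73.2 with NRRA in STRA8KO, and 53.9 and 56.4 with Veh and 74.5 and 82.3 with NRRA in SPO11KO. It rose in both cultures, by 0.53 (SE 0.0577, adjusted p = 6.30e-11) and 0.51 (SE 0.0549, adjusted p = 3.61e-11) on the log2 scale. Its paralog Ring1 rose by 0.76 in STRA8KO (SE 0.123, adjusted p = 1.11e-06). In SPO11KO, Ring1 rose by 0.37 (SE 0.122, adjusted p = 0.00969), a call lost with DESeq2 (adjusted p = 0.0546), with pan-germ scaling (0.144), without SPO11KO Veh replicate 1 (0.0607) and without SPO11KO NRRA replicate 1 (0.0662). Scml4, a relative of Scml2, fell by 1.07 in STRA8KO (SE 0.301, adjusted p = 0.00293), and was at -0.74 with no call (adjusted p = 0.104) without STRA8KO NRRA replicate 2.

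Of 10 variant PRC1 genes, 6 rose and 1 fell in STRA8KO, and 2 rose and 4 fell in SPO11KO, against 1 and 4, and 2 and 4, with pan-germ scaling, which turned the balance in STRA8KO. Kdm2b, whose protein brings variant PRC1 to CpG islands, was at 62.2 and 59.8 CPM with Veh and 101 and 103 with NRRA in STRA8KO, and 102 and 102 with Veh and 81.3 and 85.2 with NRRA in SPO11KO. It rose by 0.74 in STRA8KO (SE 0.0508, adjusted p = 1.13e-17) and fell by 0.29 in SPO11KO (SE 0.0476, adjusted p = 8.58e-07). The difference between the responses was 1.04 on the log2 scale (SE 0.0697, adjusted p = 3.54e-17). Pcgf5 rose most in SPO11KO, from 56.8 and 58.5 CPM in Veh to 105 and 104 in NRRA (log2 0.86, SE 0.0568, adjusted p = 3.61e-18). Of 7 erasers, 1 rose and 1 fell in STRA8KO, and 2 rose and 3 fell in SPO11KO, against 0 and 6, and 0 and 4, with pan-germ scaling.

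Of 5 tested Polycomb targets, 4 fell in each culture and 0 rose, as with pan-germ scaling. Foxa2, an endoderm regulator, was at 10.2 and 10.8 CPM with Veh and 4.97 and 4.98 with NRRA in STRA8KO, and 19.6 and 18.9 with Veh and 1.20 and 1.40 with NRRA in SPO11KO. It fell by 1.07 in STRA8KO (SE 0.136, adjusted p = 4.44e-09) and by 3.88 in SPO11KO (SE 0.150, adjusted p = 2.27e-27) on the log2 scale. Eomes, a T-box factor that also marks a subset of undifferentiated spermatogonia, fell by 2.97 in SPO11KO (SE 0.180, adjusted p = 1.31e-19). Cdkn2a, a cell cycle inhibitor locus held down by Polycomb in many cells, fell by 0.60 in STRA8KO (SE 0.0507, adjusted p = 1.71e-14) and by 0.32 in SPO11KO (SE 0.0527, adjusted p = 9.85e-07).

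**Figure D5:**
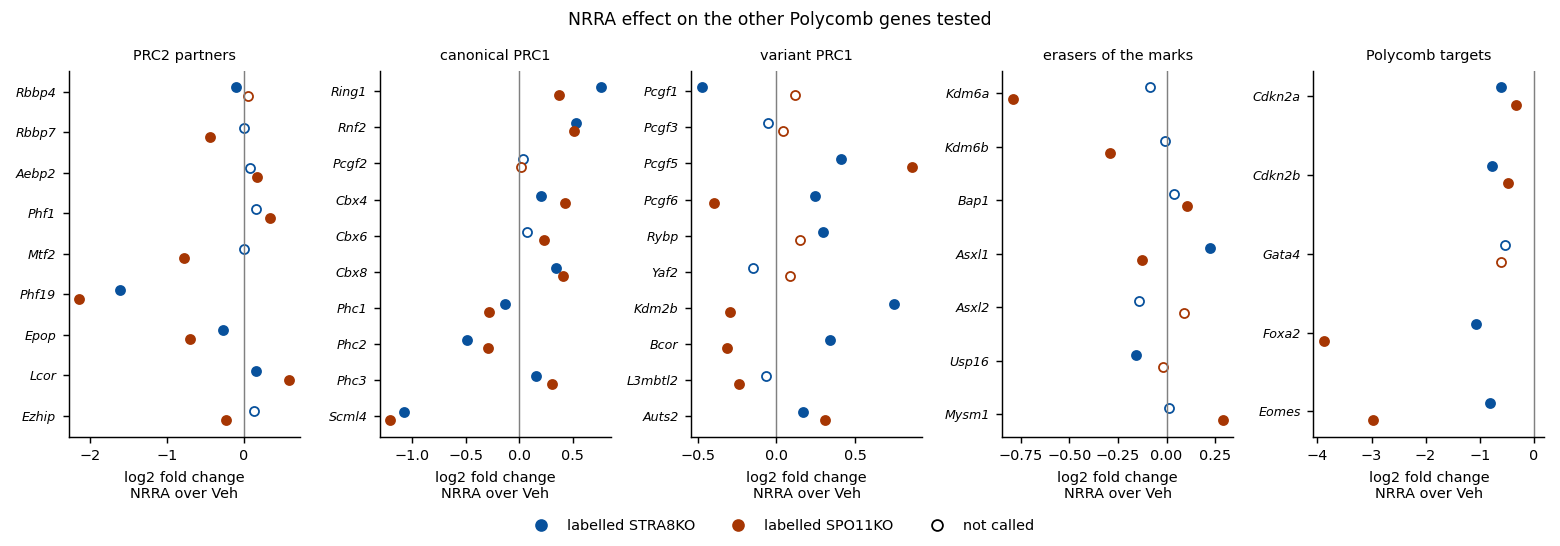
NRRA effect on the 41 other Polycomb genes tested, by class, as log2 fold change of NRRA over Veh on horizontal axes that differ between panels. Blue is STRA8KO and brown is SPO11KO, and open circles did not pass the test. Phf19 (-1.62 and -2.14), Rnf2 (0.53 and 0.51) and the 4 called targets move the same way in both cultures, and Kdm2b (0.74 and -0.29) does not.

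Between the cultures in Veh, 34 of the 41 were called, 10 higher and 24 lower in STRA8KO, where 62.3% of all genes were called, 31.6% higher and 30.7% lower. With pan-germ scaling 33 were higher and 1 lower, where 79.7% of all genes were called and 98% of those calls were higher. Among the PRC2 partners 7 of 9 were lower, against 0 with pan-germ scaling, led by Phf19 (log2 -1.17, SE 0.130, adjusted p = 7.77e-11) and Mtf2 (-1.01, SE 0.0519, adjusted p = 1.37e-22). With pan-germ scaling Phf19 was at -0.14 and not called (adjusted p = 0.384), and Mtf2 turned to 0.02. Cdkn2b (1.39, SE 0.0473, adjusted p = 2.32e-29), Cbx6 (0.80, SE 0.0505, adjusted p = 3.19e-19) and Cdkn2a (0.73, SE 0.0507, adjusted p = 1.23e-17) were higher, beside the higher fibroblast markers, whose part was not tested. Eomes was lower (-1.51, SE 0.158, adjusted p = 9.37e-12). Ring1 (0.00, 95% interval -0.27 to 0.26, adjusted p = 0.994) and Rnf2 (-0.11, -0.22 to 0.01, adjusted p = 0.117) were not called. Rnf2 was called lower with total counts (-0.22, adjusted p = 9.75e-04), and with pan-germ scaling both Rnf2 (0.92, adjusted p = 4.20e-14) and Ring1 (1.02, adjusted p = 5.94e-08) were called higher.

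In NRRA, 27 were called, 10 higher and 17 lower in STRA8KO, where 64% of all genes were called, 35% higher and 28.9% lower. With pan-germ scaling 37 were higher and 2 lower, where 81.4% of all genes were called and 95.9% of those calls were higher. Pcgf5 (-1.43, SE 0.0605, adjusted p = 6.37e-26), Lcor (-1.18, SE 0.0464, adjusted p = 4.24e-27) and Phc1 (-0.78, SE 0.0484, adjusted p = 1.43e-19) were lowest, and Phc1 turned to 0.15 with pan-germ scaling. Foxa2 (1.93, SE 0.193, adjusted p = 2.02e-12), Cdkn2b (1.10, SE 0.0497, adjusted p = 7.71e-25) and Eomes (0.65, SE 0.242, adjusted p = 0.0165) were highest. The call for Eomes was lost with total counts (0.45, adjusted p = 0.101), in the fit of 4 libraries (0.58, adjusted p = 0.0504), without STRA8KO NRRA replicate 2 (0.61, adjusted p = 0.0832) and without SPO11KO NRRA replicate 1 (0.42, adjusted p = 0.195). Cdkn2a was higher (0.45, SE 0.0528, adjusted p = 2.78e-10) and Ring1 too (0.39, SE 0.113, adjusted p = 0.00255), though Ring1 was not called with total counts (0.18, adjusted p = 0.158). Rnf2 was at -0.09 (adjusted p = 0.160) and was called lower with total counts (-0.29, adjusted p = 4.04e-06), with no filter (-0.14, adjusted p = 0.0295), in the fit of 4 libraries (-0.16, adjusted p = 0.00931) and without SPO11KO NRRA replicate 1 (-0.16, adjusted p = 0.0268). With pan-germ scaling it was called higher (0.84, adjusted p = 6.58e-14).

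The test of the difference between the 2 NRRA responses called 22 of the 41 other genes, 12 with a higher value in STRA8KO and 10 with a lower one, where 25.1% of all genes were called, 14.8% higher and 10.3% lower. With pan-germ scaling the counts were 9 and 15, where 23.1% of all genes were called and 39.1% of those calls were higher. By class, the calls were 6 of 9 PRC2 partners, 2 of 10 canonical PRC1 genes, 5 of 10 variant PRC1 genes, 5 of 7 erasers and 4 of 5 targets. Rnf2 (0.02, 95% interval -0.14 to 0.18, adjusted p = 0.902) and Ring1 (0.39, 0.04 to 0.74, adjusted p = 0.0984) were not called, and Cdkn2a differed by -0.28 (SE 0.0732, adjusted p = 0.00256).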

How the data were processed

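The deposited table held raw read counts per gene, with no normalization by the authors and 1 column per library. The labels list STAR 2.6.1c, featureCounts 1.6.4, bcl2fastq and build mm10. The annotation release, the strand setting and the handling of reads with several matches are not given in the sources used here, and the labels and the study's methods name different library kits, so reads of overlapping genes on opposite strands may not have been told apart. Here, 20588 of 39921 genes with a count were kept by filterByExpr, libraries were scaled by TMM, and a group-means model of all 8 libraries was fitted with edgeR 4.0.16 (limma 3.58.1, R 4.3.3) and tested two-sided by its robust quasi-likelihood F test with Benjamini-Hochberg adjustment over all genes tested. CPM is a gene's counts relative to the TMM-scaled library size. Exon lengths and coordinates came from GENCODE M21, which held 99.67% of the table's genes, and promoters from RefSeq on GRCm38.p6. Intervals are 95%.

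The 10 members and all gene lists were chosen with earlier results of these data known. All members were named. From 46 other Polycomb genes, the text names for each comparison the 3 largest rises and 3 largest falls among called genes, plus Ring1, Rnf2 and Cdkn2a. The Kdm2b value in SPO11KO was added after values were seen. For Scml2 and Scmh1 the 3 most similar genes by pattern, with a mean log2 CPM of at least 1, are given. The fit was tested on simulated data. The common biological coefficient of variation was 3.39%. Alternatives were size factors, total counts, filters, DESeq2 1.42.0, whose method the study used, a fit of 4 libraries, a replicate block, single libraries left out, a fold threshold of 0.5 and pan-germ scaling. Pan-germ scaling of other genes and of counts was added after seeing the data.

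Marker lists for fibroblast, pan-germ and undifferentiated cells are given with the results. The 6 macrophage markers summed to 18.9 to 39.0 CPM in Veh and 24.4 to 48.5 in NRRA, with C1qa at 11 counts or fewer, and the 7 Sertoli and Leydig markers summed to 19.9 to 53.3 CPM, led by Sox9, with Insl3 at 2 counts or fewer. Of 5 tested in each list, 1 macrophage marker rose and 1 fell under NRRA in STRA8KO, 2 rose and 1 fell in SPO11KO, and 2 (Veh) and 5 (NRRA) were higher in STRA8KO, while 1 Sertoli or Leydig marker rose and 1 fell under NRRA in STRA8KO, 1 fell in SPO11KO, and 2 (Veh) and 2 (NRRA) were higher and 1 (NRRA) lower in STRA8KO. Replicate libraries differed by more than sampling noise, with chi-square per gene of 1.86 to 4.12 in the mean and 0.741 to 0.974 in the median, and were counted separately. Since the origin of the libraries is not given, a genotype difference cannot be told apart from one between the cultures used.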

Additional observations from a re-analysis of the deposited data

Results flagged for a closer look

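Of 41 other Polycomb genes tested, 22 had NRRA responses that differed between the cultures in edgeR's quasi-likelihood test of the difference. The share called over all genes was 25.1%. Of the 22, 12 had a higher value in STRA8KO and 10 a lower one, against 9 and 15 with pan-germ scaling. That scaling called 23.1% of all genes, and 39.1% of those calls were higher. The list was made with earlier results of these data known, so the p-values are a description. The called genes with the 3 highest and the 3 lowest values are given here. Each value is the response in STRA8KO minus that in SPO11KO on the log2 scale. Foxa2 differed by 2.81 (SE 0.221, adjusted p = 8.59e-15) and Eomes by 2.16 (SE 0.292, adjusted p = 5.16e-08), since both fell further in SPO11KO. Kdm2b differed by 1.04 (SE 0.0697, adjusted p = 3.54e-17), with every NRRA library above every Veh library in STRA8KO and below in SPO11KO. Pcgf1 differed by -0.59 (SE 0.167, adjusted p = 0.00562), Pcgf5 by -0.45 (SE 0.0913, adjusted p = 1.20e-04) and Lcor by -0.43 (SE 0.0672, adjusted p = 1.17e-06).

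Among the 10 members, Ezh1 moved one way in both STRA8KO NRRA libraries and the opposite way in both SPO11KO NRRA libraries, a difference of 0.87 on the log2 scale. It is given as a description with no p-value, because genotype dependence was part of how the members were chosen. The small rise in STRA8KO was -0.11 with pan-germ scaling. It was not called with size factors, with no filter, with DESeq2 or with some single libraries left out.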

How the results depend on the processing

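Beside total counts, DESeq2 size factors, other filters, DESeq2 and the fit of 4 libraries, scaling to pan-germ counts changed most. It assigns the shift of the germ cell signal to depth and moved the median of all genes by 1.03 and 0.93 (log2) in the culture comparisons and by -0.25 and -0.15 for NRRA. With it, Ezh1 was -0.11, Eed -0.21 and Scml2 -0.067 for NRRA in STRA8KO, and Eed -0.079 and Cbx2 -0.13 in SPO11KO. In the culture difference in Veh, Ezh2 (0.25), Eed (0.63), Suz12 (0.35), Jarid2 (0.24), Scmh1 (0.60), Mtf2 (0.016), Ring1 (1.02) and Rnf2 (0.92) turned higher, and in NRRA Ezh1 (0.64), Ezh2 (0.39), Eed (0.51), Suz12 (0.28), Jarid2 (0.60), Bmi1 (0.74), Phc1 (0.15) and Rnf2 (0.84) did. The difference between responses was -0.077 for Rnf2. Total counts gave 0.043 for Scml2 in SPO11KO NRRA and -0.074 for the Rnf2 difference. Values near 0 changed sign for Ring1 in Veh (0.0095 with size factors, 0.0079 with no filter, 0.0086 with DESeq2) and for the Rnf2 difference (-0.013, -0.044 and -0.012). The cause was not tested.

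Leaving out 1 library at a time moved Ezh2 for NRRA in STRA8KO from -0.16 to 0.089, Bmi1 from -0.082 to 0.013, Scml2 in SPO11KO from -0.11 to 0.0022, Cbx2 in SPO11KO from -0.037 to 0.070, Ring1 in Veh from -0.060 to 0.050, the Rnf2 difference from -0.053 to 0.099, and the other genes called for NRRA in STRA8KO from 15 to 27. With a log2 change of at least 0.5 added, members called, Scmh1 included, were 0 and 3 for NRRA in STRA8KO and SPO11KO. They were 6 in the NRRA culture difference and 2 for the difference of responses. Other genes called were 9, 10, 16, 12 and 8 over the 5 comparisons, since the rule is narrower. Of all genes, 20.4% passed for NRRA in STRA8KO and 24.5% in SPO11KO. The shares were 40.2% and 42% for the culture differences in Veh and NRRA, and 12.1% for the difference of responses. Total counts changed the share of calls over all genes that were higher from 49% to 61.7% for NRRA in SPO11KO, from 54.8% to 39.5% for the culture difference in NRRA and from 59% to 38.7% for the difference of responses. The replicate numbers did not pair the libraries (correlations of deviations from -0.0678 to 0.143), and a replicate block moved no named gene past its threshold. It changed 1 call among the other genes, Aebp2 in the culture difference in Veh (log2 0.12, adjusted p = 0.0498, and 0.0547 with the block), and the log2 value of Ezh1 in SPO11KO was -0.73 with it. At 271 to 1089 counts a library, Cbx7 had the widest intervals among the members.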
